A study of Homo sapiens with 35 samples.

Results

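The genes described here are targets of the hypoxia-inducible factors (HIFs) outside glycolysis, the HIF subunits themselves, and the enzymes and partners that sense oxygen. A list of 40 such genes was matched to the array by gene symbol, using rows that carry 1 symbol and, for each gene, the row with the highest mean over all 35 arrays. This left 38 genes among the 18404 genes tested. CA9 has no such row and EGLN2 shares its row with a readthrough transcript, so both were not analysed here. All arrays are of HCT116, an established human colorectal carcinoma line, in 3 lines that carry a short hairpin RNA: shControl with a hairpin without a target, shCDK8 and shCDK19. CDK8 and CDK19 are alternative kinases of the Mediator complex, a bridge between transcription factors and the polymerase that makes mRNA. The arrays form 14 groups in 4 experiments. In normal growth the 3 lines have 3 arrays each. In the drug experiment shControl cells received DMSO or 5-fluorouracil (5FU) for 12 h, and both knockdown lines received 5FU, with 2 arrays a group. In the glucose experiment shControl cells were in high or low glucose medium for 24 h and both knockdown lines in low glucose medium, with 3 arrays a group. In the hypoxia experiment the 3 lines were held in 1% oxygen for 24 h, with 2 arrays a group. Each knockdown is 1 hairpin line, so the loss of the kinase and other properties of that line cannot be told apart.

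HIF is a pair of an oxygen-regulated alpha subunit (HIF1A or EPAS1, also called HIF-2 alpha) and a stable beta subunit (ARNT or ARNT2). In oxygen, the prolyl hydroxylases of the EGLN family mark the alpha subunit for VHL, which directs its destruction, and HIF1AN hydroxylates an asparagine that blocks coactivator binding. When oxygen falls these enzymes slow down, the alpha subunit accumulates as protein, and the pair switches on genes for glycolysis, acid handling, mitophagy, collagen maturation and histone demethylation, among them EGLN1 and EGLN3.

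The arrays of a group correlated at r = 0.98 to 0.999 across genes. The lowest value belonged to the 2 hypoxic shControl arrays, whose median SD over the 38 genes was 0.196, against 0.053 to 0.154 in the other groups. The main counts that rest on those arrays are therefore also given without one of them, and the other values of hypoxic shControl cells are given with both. The CDK8 row, which is shared with ADRA1B, averaged 8.02 to 8.20 in the shCDK8 groups and 10.05 to 10.90 in the others. CDK19 was lower in shCDK19 than in shControl cells in each experiment, for example 7.60 against 9.10 in normal growth. Of 10 epithelial markers 8 lay above the 75th percentile of all genes, and none of 6 fibroblast, 4 leukocyte and 5 endothelial markers did. All values below are log2 signals, on which a difference of 1 is a doubling.

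The first question was how 1% oxygen changed these genes in each line. Compared with normal growth, 30 of the 38 genes were higher and 3 lower in hypoxic shControl cells at an adjusted p under 0.05 (limma, Benjamini-Hochberg over all genes), with a median log2 change of 1.03. Of all genes, 21.1% were higher and 26.7% lower in that comparison, with a median of 0.06. In shCDK8 cells 28 were higher and 1 lower, against 3.52% and 5.57% of all genes, and the median was 0.66. In shCDK19 cells 30 were higher and 4 lower, against 11.1% and 20.2% of all genes, and the median was 1.03. Higher in all 3 lines were 26 genes, against 2.35% of all genes. The share of all genes called moved widely with the hypoxic shControl arrays. Without the first array 30 of the 38 were higher and 2 lower, against 7.79% and 16.9% of all genes, and without the second 32 and 4, against 34.9% and 30.8%. Of the 33 genes called with both arrays, 31 were called the same way without either, the exceptions being HIF1AN and ARNT. Leaving out either array moved the log2 change of a gene by a median of 0.14 and by up to 0.34 (LOX). No normoxic array of the hypoxia experiment was analysed here, so hypoxia and the experiment cannot be told apart in these 3 comparisons. The labels do not say that replicates were separate cultures, so the p-values rest on a spread between arrays that may be technical. In whole-culture RNA, fewer cells that express a gene and less RNA per cell cannot be told apart.

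**Figure D1:**
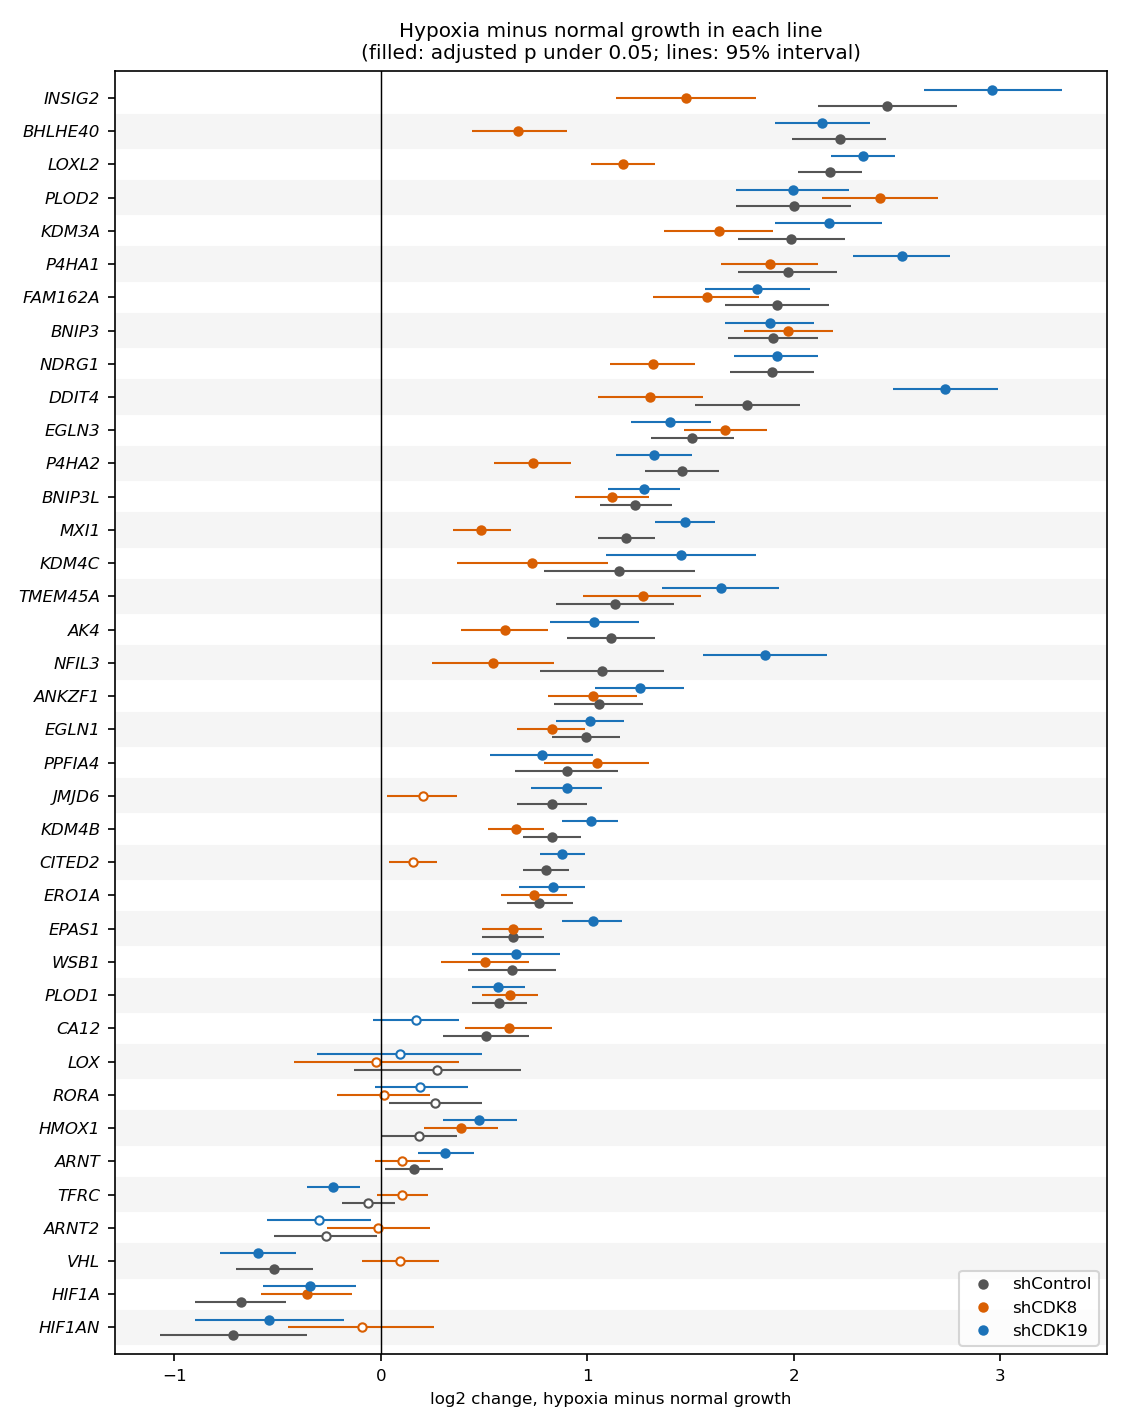
Log2 change of the 38 genes between hypoxia and normal growth (horizontal axis) in shControl, shCDK8 and shCDK19 cells, ordered by the change in shControl cells. Points are limma estimates, lines their 95% intervals and filled points passed an adjusted p of 0.05. INSIG2 has the largest change in shControl cells, 2.45, and HIF1AN the lowest, -0.71.

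The other 3 experiments widen the comparison, since they contain 29 arrays that were not hypoxic. It is not a separate view: the 6 hypoxic arrays are the same, and the 29 include the normal growth arrays used above. All hypoxic arrays are of 1 experiment, so hypoxia and the experiment cannot be told apart here either. For 20 of the 38 genes all 6 hypoxic arrays lay above all 29 others, a pattern shown by 0.685% of all genes, and 0 of the 38 lay below on all 6, against 1.36% of all genes. They were NDRG1, EGLN1, EGLN3, BNIP3, BNIP3L, INSIG2, KDM3A, KDM4B, KDM4C, P4HA1, P4HA2, PLOD1, PLOD2, LOXL2, BHLHE40, ERO1A, FAM162A, TMEM45A, PPFIA4 and ANKZF1. Within shControl cells, 28 genes were higher on both hypoxic arrays than on all 8 unstressed arrays (normal growth, DMSO and high glucose), against 9.04% of all genes. With the second hypoxic array alone 30 genes were above all 8, against 14.2% of all genes, and with the first alone 31, against 35% of all genes. HIF1A, HIF1AN and VHL were lower on both than on all 8, against 13.7% of all genes. The unstressed groups themselves differed: the range of their 3 means had a median of 0.50 over the 38 genes and reached 1.87 for DDIT4. Against the average of those 3 groups, a baseline added after the data were seen, 31 genes were higher and 4 lower, against 24.6% and 26.9% of all genes.

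**Figure D2:**
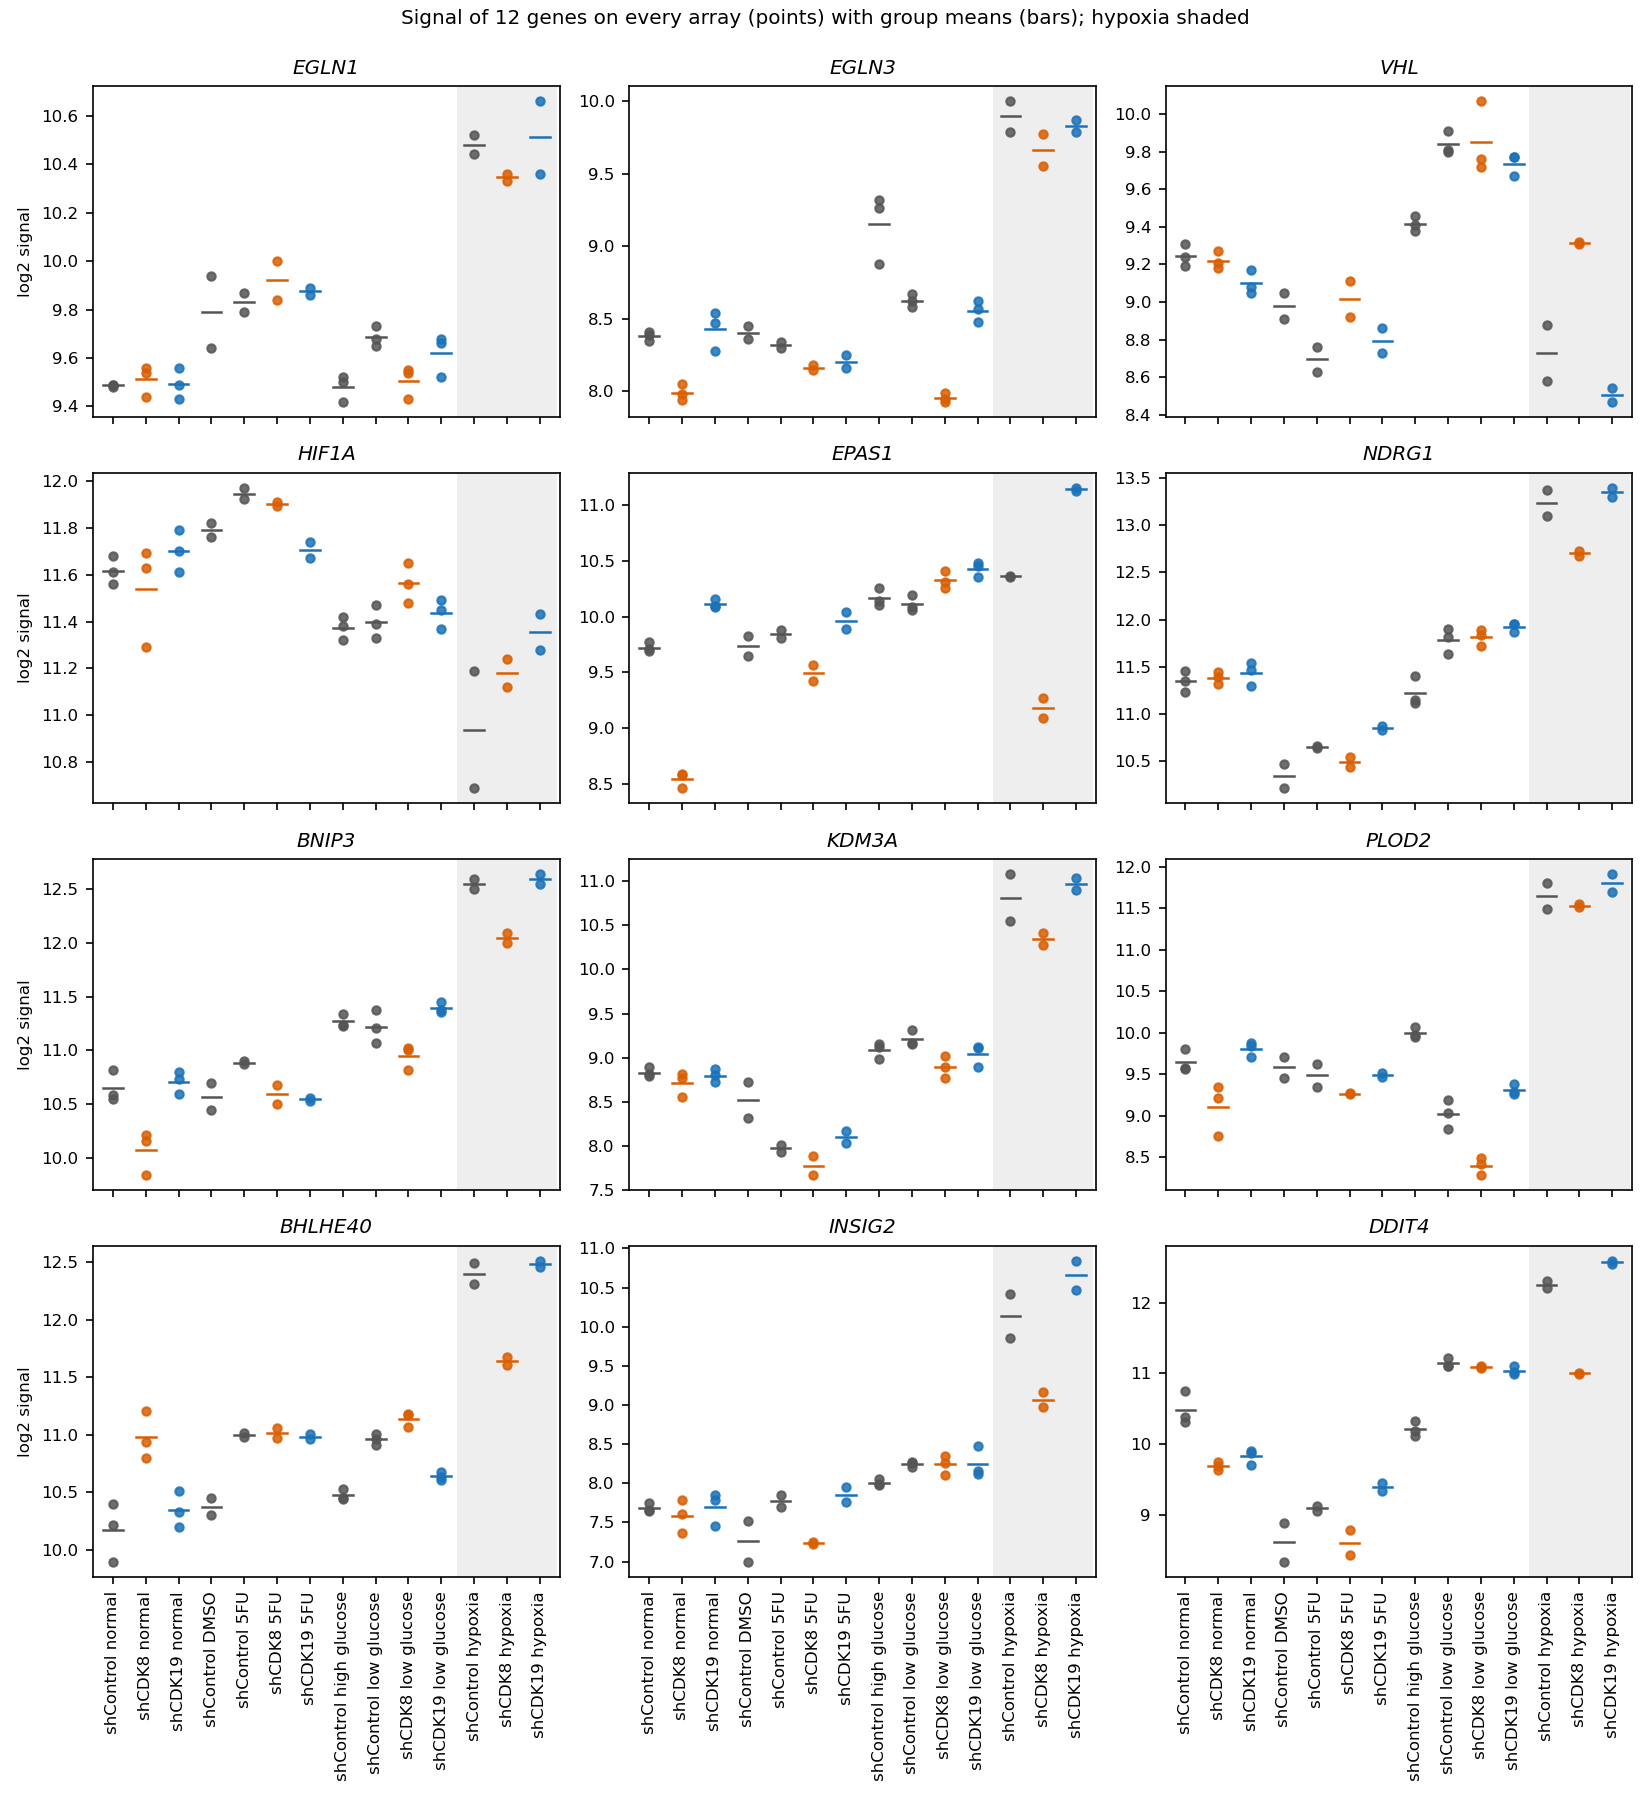
Log2 signal of 12 genes (vertical axis, a scale of its own in each panel) on each of the 35 arrays in the 14 groups, with bars at the group means and hypoxia shaded. EGLN1, EGLN3, NDRG1, BNIP3, KDM3A, PLOD2, BHLHE40 and INSIG2 have all 6 hypoxic arrays above the other 29, whereas HIF1A is lower under hypoxia and VHL and EPAS1 separate the lines.

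The promoters of 4 genes that rose under hypoxia in all lines are shown. BHLHE40 and INSIG2 rose less in shCDK8 than in shControl cells, whereas for BNIP3 and EGLN1 no difference passed the test. The 4 genes were not tested against each other. Each sequence is the 250 bases before the gene's start in RefSeq on GRCh38.p14, 5′ to 3′ on the gene's strand, and capitals mark the core of the hypoxia response element, ACGTG or GCGTG, on either strand (CACGT or CACGC where it lies on the other strand). The BHLHE40 window is chr3:4979187-4979436 on the plus strand and holds 4 matches, 2 of them overlapping in 1 palindrome. The INSIG2 window is chr2:118088221-118088470 on the plus strand with 2 matches. The EGLN1 window is chr1:231422288-231422537 on the minus strand with 1 match, 13 bases before the start. The BNIP3 window is chr10:131981924-131982173 on the minus strand with 6 matches.
BHLHE40: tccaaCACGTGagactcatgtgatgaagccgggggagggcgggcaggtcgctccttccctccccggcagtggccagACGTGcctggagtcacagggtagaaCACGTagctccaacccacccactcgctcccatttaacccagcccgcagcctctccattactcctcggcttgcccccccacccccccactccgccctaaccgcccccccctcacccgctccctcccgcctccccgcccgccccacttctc
INSIG2: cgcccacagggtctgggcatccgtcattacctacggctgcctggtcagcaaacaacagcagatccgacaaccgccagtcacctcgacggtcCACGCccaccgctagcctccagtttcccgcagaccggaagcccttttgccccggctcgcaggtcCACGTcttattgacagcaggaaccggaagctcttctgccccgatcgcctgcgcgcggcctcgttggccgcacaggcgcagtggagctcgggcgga
EGLN1: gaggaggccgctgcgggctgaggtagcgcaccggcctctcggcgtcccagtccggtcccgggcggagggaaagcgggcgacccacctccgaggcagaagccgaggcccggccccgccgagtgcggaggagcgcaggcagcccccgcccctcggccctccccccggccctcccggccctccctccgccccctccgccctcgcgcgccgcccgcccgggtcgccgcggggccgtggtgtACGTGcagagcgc
BNIP3: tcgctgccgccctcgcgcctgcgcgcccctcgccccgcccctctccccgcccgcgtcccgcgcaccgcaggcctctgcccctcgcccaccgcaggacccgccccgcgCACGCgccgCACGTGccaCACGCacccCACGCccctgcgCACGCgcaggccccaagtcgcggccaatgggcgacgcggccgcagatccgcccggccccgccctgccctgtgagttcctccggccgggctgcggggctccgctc

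Windows were given for 30 of the 38 genes; BNIP3L, HMOX1, VHL, ANKZF1, NDRG1, LOXL2, ARNT2 and JMJD6 had no entry. In 24 of the 30 genes (80.0%) at least 1 window held the core, compared with 47.4% of all genes with a window and 43.2% of all windows. Those shares are of 27305 genes and 35116 windows, not limited to the genes tested here. The 30 genes had 43 windows, and a gene with more windows has more places for a match. Of the 25 genes with a window that rose in hypoxic shControl cells, 21 (84.0%) held it. A match of so short a motif is a description of the letters and not evidence of binding.

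Among the oxygen sensors, the prolyl hydroxylases rose under hypoxia. EGLN1 had log2 signals of 9.49, 9.49 and 9.48 in shControl cells in normal growth and 10.44 and 10.52 under hypoxia. In shCDK8 cells it went from 9.54, 9.44 and 9.56 to 10.33 and 10.36, and in shCDK19 cells from 9.43, 9.49 and 9.56 to 10.36 and 10.66. The groups did not overlap in any line, and the log2 changes were 1.00 ± 0.08 (SE), 0.83 ± 0.08 and 1.01 ± 0.08 in shControl, shCDK8 and shCDK19 cells. EGLN3 had 8.41, 8.39 and 8.35 in shControl cells in normal growth and 9.79 and 10.00 under hypoxia, a change of 1.51 ± 0.095 (adjusted p = 1.39e-11, limma). It rose by 1.67 in shCDK8 and by 1.40 in shCDK19 cells. VHL, the substrate receptor of the ligase that destroys HIF, went the other way in 2 of the lines. Its signal was 9.24, 9.19 and 9.31 in shControl cells in normal growth and 8.58 and 8.88 under hypoxia, and it fell by 0.52 there and by 0.60 in shCDK19 cells. In shCDK8 cells VHL had 9.18, 9.21 and 9.27 in normal growth and 9.32 and 9.31 under hypoxia, with both hypoxic arrays above the 3 others, and the change of 0.10 ± 0.09 did not pass the test. HIF1AN fell by 0.71 in shControl cells (adjusted p = 0.00183, limma), but its hypoxic arrays read 8.16 and 8.83, and without the lower one the change was -0.38 with an adjusted p of 0.166. HIF1AN also fell in shCDK19 cells, by 0.54, and its change in shCDK8 cells was -0.09 ± 0.17.

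The HIF subunits moved in different directions. HIF1A was the 1 gene of the 38 that was lower under hypoxia in all 3 lines, against 4.18% of all genes. Its call in shCDK8 cells was lost without the second or the third shCDK8 normal growth array. It was also lost with each array's median removed. Its signals in shControl cells were 11.56, 11.68 and 11.61 in normal growth and 10.69 and 11.19 under hypoxia, a drop without overlap. HIF1A fell by 0.68 in shControl (adjusted p = 1.87e-05, limma), by 0.36 in shCDK8 and by 0.34 in shCDK19 cells. These values are of its mRNA, whereas oxygen controls the subunit mainly as protein. EPAS1 rose by 0.64 ± 0.071 in shControl cells, from 9.77, 9.71 and 9.69 to 10.37 and 10.36, by 0.64 ± 0.071 in shCDK8 and by 1.03 ± 0.071 in shCDK19 cells. Of the beta subunits, ARNT rose by 0.16 in shControl cells, a call with an adjusted p of 0.0482 (limma) that was lost when any 1 of the 3 shControl normal growth arrays or the second hypoxic array was left out, and by 0.31 in shCDK19 cells. The change of ARNT in shCDK8 cells was 0.10 ± 0.066. ARNT2 passed the test in no line, with changes of -0.27, -0.01 and -0.30.

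All 4 genes of mitochondria and mitophagy rose in each line. BNIP3 and BNIP3L are outer membrane receptors that recruit the autophagy machinery to mitochondria. BNIP3 read 10.82, 10.58 and 10.55 in shControl cells in normal growth and 12.50 and 12.60 under hypoxia, and 9.84, 10.21 and 10.16 against 12.09 and 12.00 in shCDK8 cells. The shCDK8 arrays were lower than the shControl arrays in both conditions, and the rise was 1.90 ± 0.11 in shControl, 1.97 ± 0.11 in shCDK8 and 1.89 ± 0.11 in shCDK19 cells. BNIP3L rose by 1.23, 1.12 and 1.28 in the same order. FAM162A, a small mitochondrial protein, rose by 1.92, 1.58 and 1.82. AK4, the adenylate kinase of the mitochondrial matrix, rose by 1.11, 0.60 and 1.03.

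Of the 6 collagen and matrix genes, 5 rose in each line. P4HA1 and P4HA2 are the catalytic subunits of collagen prolyl hydroxylases, PLOD1 and PLOD2 hydroxylate collagen lysines, and LOX and LOXL2 are lysyl oxidases that cross-link the matrix. PLOD2 read 9.80, 9.56 and 9.58 in shControl cells in normal growth and 11.49 and 11.80 under hypoxia, a 4-fold rise (log2 change 2.00 ± 0.13, adjusted p = 4.09e-11, limma). In shCDK8 cells PLOD2 rose by 2.42 and in shCDK19 cells by 2.00. P4HA1 read 9.75, 9.68 and 9.61 in shControl cells in normal growth and 11.49 and 11.82 under hypoxia, and rose by 1.97, 1.89 and 2.52 in shControl, shCDK8 and shCDK19 cells. LOXL2 rose by 2.18, 1.17 and 2.33 in the same order, and PLOD1 by 0.57, 0.62 and 0.57. LOX was dim, with a mean of 5.44 against a floor of 4.32, and passed the test in no line. Its hypoxic shControl arrays read 6.10 and 5.41, on either side of the normal growth arrays.

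The chromatin enzymes KDM3A, KDM4B and KDM4C, histone lysine demethylases that use oxygen and 2-oxoglutarate, rose in all 3 lines. KDM3A read 8.89, 8.81 and 8.79 in shControl cells in normal growth and 10.55 and 11.08 under hypoxia, a 3.97-fold rise with no overlap. The log2 changes of KDM3A were 1.99 ± 0.13, 1.64 ± 0.13 and 2.17 ± 0.13 in shControl, shCDK8 and shCDK19 cells. KDM4C rose by 1.16, 0.73 and 1.46, and KDM4B by 0.83, 0.65 and 1.02. JMJD6, a dioxygenase of the same fold, rose by 0.83 in shControl and 0.90 in shCDK19 cells, and its change in shCDK8 cells was 0.20 ± 0.082. Outside the list, 21 other 2-oxoglutarate dioxygenases gave 6 higher and 5 lower in shControl cells, with a median of -0.09. Of all genes 21.1% were higher and 26.7% lower.

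Of the 5 transcription factors and modulators, BHLHE40, MXI1 and NFIL3 rose in all 3 lines. BHLHE40, a basic helix-loop-helix repressor, read 10.22, 9.90 and 10.40 in shControl cells in normal growth and 12.31 and 12.49 under hypoxia, a 4.67-fold rise. In shCDK8 cells BHLHE40 read 11.21, 10.80 and 10.94 and 11.68 and 11.61, and in shCDK19 cells 10.33, 10.20 and 10.51 and 12.51 and 12.46. Groups did not overlap in any line, but the shCDK8 arrays started higher and ended lower than those of the other lines. MXI1, which opposes MYC, rose by 1.19, 0.49 and 1.48 in shControl, shCDK8 and shCDK19 cells. NFIL3, a leucine zipper repressor, rose by 1.07, 0.54 and 1.86. CITED2, which competes with HIF for its coactivators CBP and p300, rose by 0.80 in shControl and 0.88 in shCDK19 cells, and its change in shCDK8 cells was 0.15 ± 0.054. RORA, a nuclear receptor with a mean of 5.23, near the floor, passed the test in no line.

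The 5 genes of growth, protein folding and lipid control rose in every line. INSIG2, which holds back the activation of sterol synthesis, had the largest change of the 38 genes in shControl and shCDK19 cells. It read 7.75, 7.64 and 7.66 in shControl cells in normal growth and 9.85 and 10.42 under hypoxia, and 7.36, 7.61 and 7.79 against 9.16 and 8.97 in shCDK8 cells. INSIG2 in shCDK19 cells read 7.79, 7.85 and 7.45 and 10.47 and 10.84, so the hypoxic shCDK8 arrays were the lowest of the 6 hypoxic arrays and still above every array in normal growth. The fold changes of INSIG2 were 5.47, 2.79 and 7.79 in shControl, shCDK8 and shCDK19 cells. DDIT4, an inhibitor of the mTOR pathway, read 10.75, 10.31 and 10.38 in shControl cells in normal growth and 12.21 and 12.30 under hypoxia, and rose by 1.77, 1.30 and 2.73 in the 3 lines. ERO1A, which oxidises protein disulfide isomerase, rose by 0.77, 0.74 and 0.83. WSB1, a substrate receptor of a ubiquitin ligase, rose by 0.63, 0.51 and 0.65, and ANKZF1, a factor of ribosome quality control, by 1.06, 1.03 and 1.26.

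Of the remaining genes, NDRG1, a stress response gene long used as a marker of hypoxia, read 11.45, 11.35 and 11.23 in shControl cells in normal growth and 13.10 and 13.38 under hypoxia, a 3.72-fold rise (adjusted p = 9e-13, limma). TMEM45A, a transmembrane protein, rose by 1.14, 1.27 and 1.65, and PPFIA4, a liprin scaffold, by 0.90, 1.04 and 0.78. CA12, a membrane carbonic anhydrase, was called higher in shControl (0.51) and shCDK8 (0.62) cells, with 0.17 ± 0.1 in shCDK19 cells. Its call in shControl cells depended on the baseline: against the average of the 3 unstressed shControl groups the change was 0.03. HMOX1, haem oxygenase, was called higher in shCDK8 (0.39) and shCDK19 (0.48) cells, with 0.19 ± 0.088 in shControl cells. TFRC, the transferrin receptor, was lower in shCDK19 cells (-0.23), with -0.06 ± 0.061 in shControl and 0.10 ± 0.061 in shCDK8 cells.

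Most HIF targets outside the list also rose in hypoxic shControl cells. For comparison with the counts below, 21.1% of all genes were higher and 26.7% lower. Of 23 HIF targets of glycolysis and glucose uptake 22 were higher and 1 lower (median 0.70), with SLC2A3 at 2.76 and HK2 at 2.55. Of 17 further HIF targets 15 were higher and 2 lower (median 0.89), led by ANKRD37 (3.35), ANGPTL4 (3.22) and HILPDA (2.48). Of 17 genes of HIF turnover and coactivators 1 was higher and 6 lower (median -0.11), among them CUL2, the scaffold of the VHL ligase, at -0.99. The 14 p53 targets gave 1 higher and 7 lower, and the 17 genes of the ATF4 amino acid response 5 higher and 10 lower. Without the first and without the second hypoxic array, the medians were -0.04 and -0.21 for HIF turnover and coactivators. They were -0.13 and -0.38 for the p53 targets and -0.29 and -0.34 for the ATF4 response. Without the first hypoxic array the counts were 21 higher and 0 lower for the glycolytic and 14 and 1 for the further targets, and without the second 21 and 1 and 15 and 2. Of the 10 epithelial markers 6 were higher and none lower, with changes up to 0.51 for CDH1, and 3 of 6 fibroblast markers were higher, led by COL1A1 (0.80). Without the first hypoxic array 4 epithelial, 1 fibroblast, 0 of 4 leukocyte and 0 of 5 endothelial markers were higher, and without the second 6, 4, 3 and 4. The fibroblast list averaged 6.16 to 6.67 over the 14 groups, and its markers DCN and LUM lay at the array's floor on 23 and 33 of the 35 arrays.

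Whether the hypoxia response differed in the shCDK8 line was tested as the change in shCDK8 minus the change in shControl cells. This is the same as the difference between the lines under hypoxia minus that in normal growth. Of the 38 genes 9 rose less in shCDK8 cells and 1 had a more positive change, against 2.45% and 9.06% of all genes. The 9 held 3 of the 5 transcription factors and modulators (BHLHE40, MXI1 and CITED2), the matrix genes LOXL2 and P4HA2, and INSIG2, JMJD6, NDRG1 and AK4. This excess over all genes depended on the hypoxic shControl arrays. It remained without the first, whereas without the second the members no longer stood well above all genes.

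**Figure D3:**
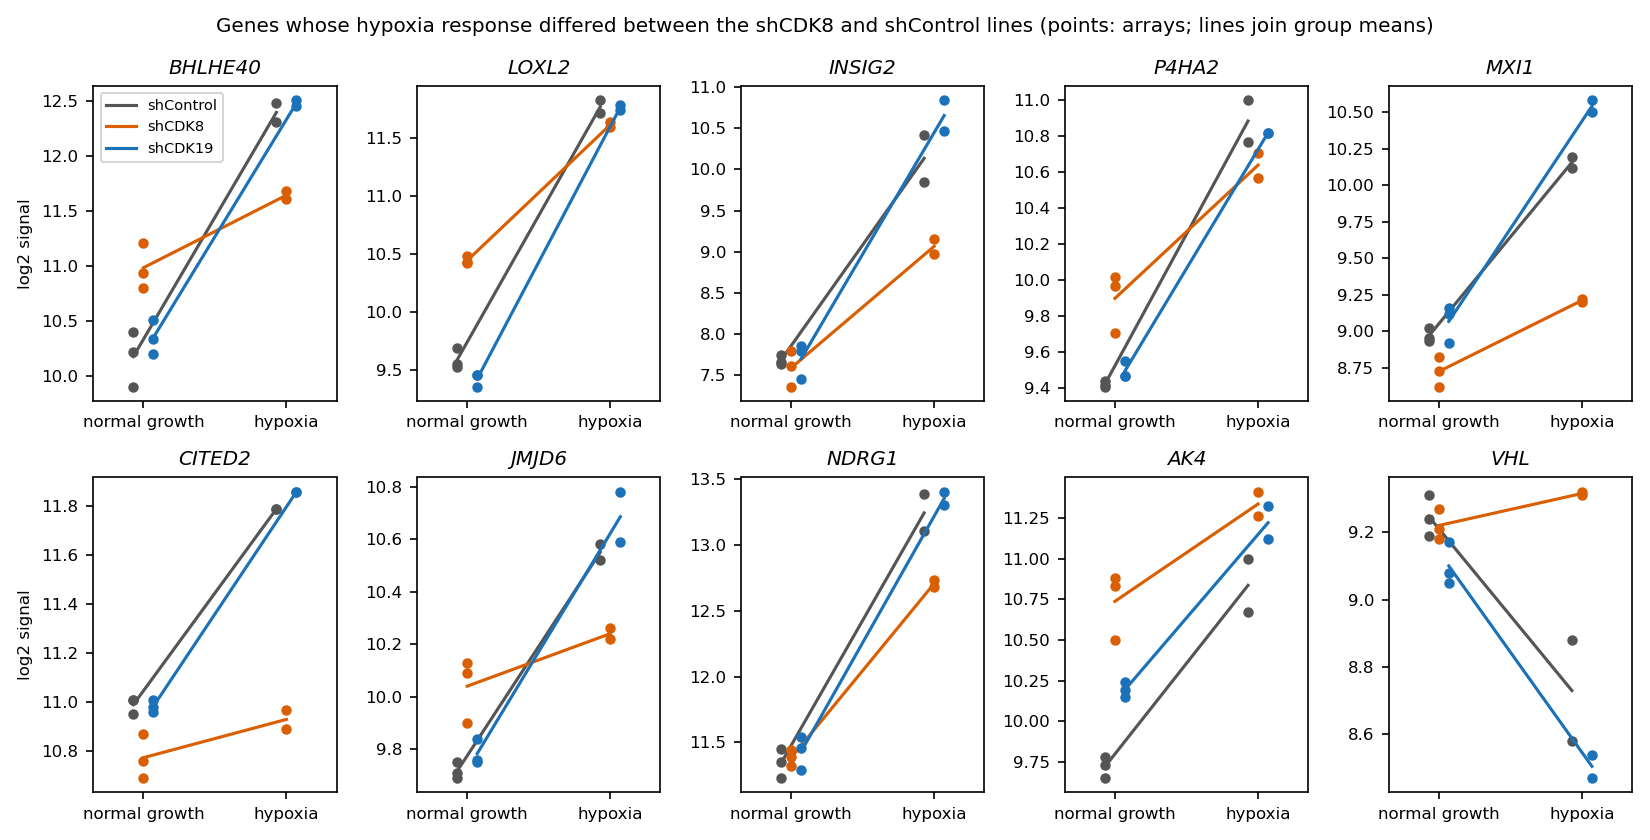
Log2 signal (vertical axis, a scale of its own in each panel) in normal growth and hypoxia for the 10 genes whose hypoxia response differed between shCDK8 and shControl cells, with arrays as points and lines joining group means. In BHLHE40 the shCDK8 line starts above and ends below the other lines, in INSIG2 the lines start together, and in VHL the shControl and shCDK19 lines fall while the shCDK8 line does not.

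The 10 genes reached the difference in different ways. For INSIG2, MXI1, CITED2 and NDRG1 the lines were closer in normal growth than under hypoxia. NDRG1 read 11.45, 11.35 and 11.23 in shControl and 11.39, 11.44 and 11.32 in shCDK8 cells in normal growth, and 13.10 and 13.38 and 12.68 and 12.73 under hypoxia. The groups overlapped in normal growth and were apart under hypoxia, and the difference of the responses was -0.57 ± 0.14 (adjusted p = 0.00816, limma). MXI1 read 10.19 and 10.12 in hypoxic shControl and 9.20 and 9.22 in hypoxic shCDK8 cells, and its response differed by -0.70 ± 0.096 (adjusted p = 4.92e-05, limma). CITED2 read 11.79 and 11.79 in hypoxic shControl and 10.97 and 10.89 in hypoxic shCDK8 cells, with a difference of -0.65 ± 0.077. In both genes the hypoxic shCDK8 arrays lay well below those of the other lines. For INSIG2 the difference was -0.97 ± 0.23 (adjusted p = 0.00674, limma), and the call was lost (adjusted p = 0.0632) when the fit held the normal growth and hypoxia arrays alone.

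For LOXL2, P4HA2, AK4 and JMJD6 the shCDK8 line was already higher in normal growth. LOXL2 read 9.69, 9.55 and 9.53 in shControl and 10.43, 10.48 and 10.42 in shCDK8 cells in normal growth, and 11.82 and 11.71 and 11.63 and 11.59 under hypoxia. The gap between the lines was 0.85 ± 0.055 in normal growth and -0.15 ± 0.081 under hypoxia, where it did not pass the test, and the responses differed by -1.003 ± 0.11 (adjusted p = 1.77e-06, limma). P4HA2 was higher by 0.48 in normal growth and differed by -0.25 ± 0.11 under hypoxia. AK4 was higher by 1.01 in normal growth and by 0.50 ± 0.15 under hypoxia, where the difference did not pass the test, and its response difference of -0.51 ± 0.15 (adjusted p = 0.0231, limma) was lost under 5 of 17 alternative settings. JMJD6 was higher by 0.32 in normal growth, with -0.31 ± 0.096 under hypoxia. BHLHE40 combined both: the shCDK8 line was higher by 0.81 in normal growth and lower by 0.75 under hypoxia, and the response difference of -1.56 ± 0.16 was the largest of the 38 (adjusted p = 8.27e-07, limma). The gene with a more positive change was VHL, at 0.61 ± 0.13 (adjusted p = 0.00266, limma).

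For other central members no difference between shCDK8 and shControl cells passed the test, and the intervals show what sizes remain possible. The difference for BNIP3 was 0.07 (95% interval, not adjusted for the number of genes, -0.24 to 0.38), for EGLN3 0.16 (-0.12 to 0.44) and for EGLN1 -0.17 (-0.40 to 0.07). For PLOD2 it was 0.42 (0.03 to 0.81), for P4HA1 -0.09 (-0.42 to 0.25) and for EPAS1 -0.002 (-0.21 to 0.20). The estimate for NDRG1, -0.57, lies outside each of these 6 intervals, a comparison that leaves out its own uncertainty. The genes were not tested against each other. KDM3A and DDIT4 had differences of -0.35 (-0.72 to 0.02) and -0.47 (-0.83 to -0.11), which did not pass after adjustment over all genes. Of the glycolytic HIF targets 5 of 23 rose less in shCDK8 cells, among them SLC2A3 at -0.99 and SLC2A1 at -0.90, and 0 had a more positive change. Of the 17 further targets 5 rose less, led by ANKRD37 at -2.25, and 1 had a more positive change. Of all genes 2.45% had a more negative and 9.06% a more positive change. These list counts are given with both hypoxic shControl arrays.

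Between shCDK19 and shControl cells the hypoxia change was more positive in shCDK19 cells for 3 genes and more negative for 0. The shares of all genes were 1.52% and 0.56%. At an unadjusted p under 0.05, 9 genes had a more positive and 1 a more negative change, against 9.97% and 6.57% of all genes. A gene that fell less, such as HIF1A with a difference of 0.33, also has a more positive change. DDIT4 read 9.88, 9.71 and 9.90 in shCDK19 cells in normal growth and 12.59 and 12.55 under hypoxia, from below to above the shControl arrays, and its response was larger by 0.96 ± 0.17 (adjusted p = 0.00427, limma). This call held under all 17 alternative settings run for it, each with normal growth as the baseline. The means of DDIT4 in the unstressed shControl groups ran from 8.61 to 10.48. DDIT4 was called lower in shCDK19 than in shControl cells in normal growth, and under hypoxia it was not called between these lines. The response of NFIL3 was larger by 0.79 ± 0.2 (adjusted p = 0.0435, limma) and that of EPAS1 by 0.39 ± 0.1 (adjusted p = 0.0422, limma), calls lost under 10 and 11 of 17 settings. The count of 3 genes was 1 without any 1 of the 3 shControl normal growth arrays, against 0.837% to 1.08% of all genes. It was also 1 without the second or the third shCDK19 normal growth array, against 0.929% and 0.657% of all genes. The count further depended on which hypoxic shControl array was left out. Over the 17 settings the difference ranged from 0.82 to 1.05 for DDIT4, from 0.59 to 0.98 for NFIL3 and from 0.25 to 0.41 for EPAS1. The shCDK8 and shCDK19 differences share the shControl arrays.

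The second question was whether other stresses moved the same genes. Low against high glucose medium for 24 h in shControl cells gave 12 genes higher and 11 lower, against 13.9% and 17.3% of all genes, with a median of 0.07. Of the 30 genes that rose under hypoxia 10 also rose in low glucose and 9 fell, against 16.2% and 8.17% of all genes that rose under hypoxia. These 2 comparisons share no arrays.

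**Figure D4:**
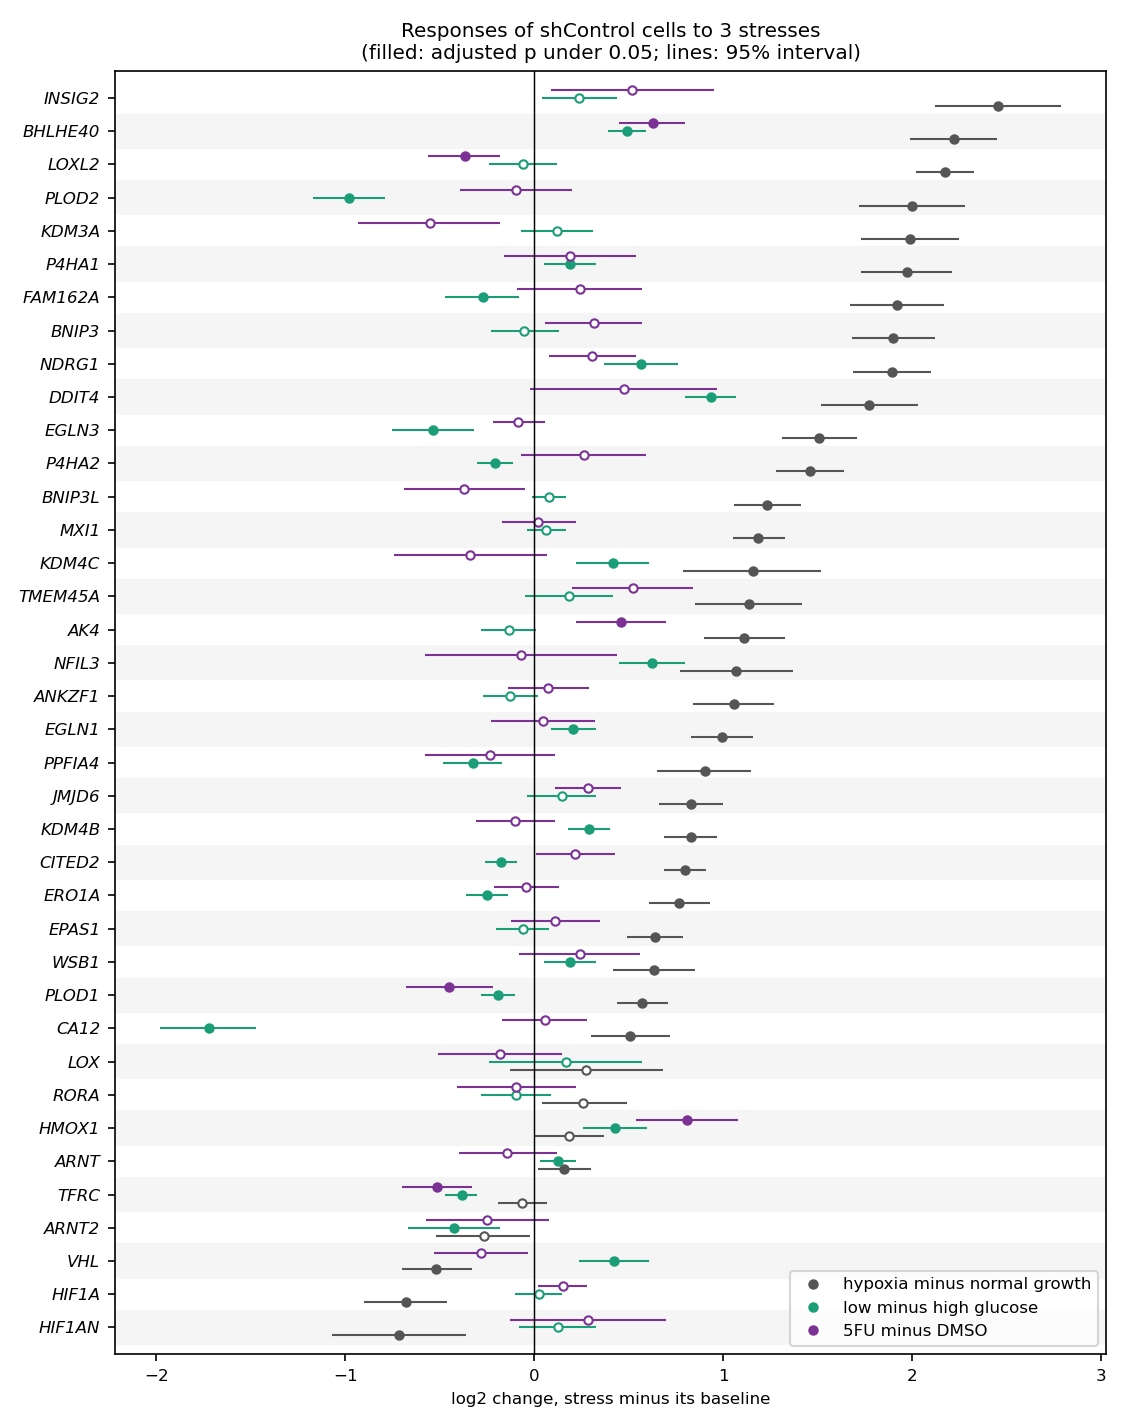
Log2 change of the 38 genes (horizontal axis) in shControl cells for hypoxia minus normal growth, low minus high glucose and 5FU minus DMSO, ordered by the hypoxia change. Points are limma estimates, lines 95% intervals and filled points passed an adjusted p of 0.05; low glucose moved CA12 by -1.72 and DDIT4 by 0.94, and 5FU moved HMOX1 by 0.81.

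Among the genes that fell in low glucose, CA12 changed most. It read 9.49, 9.23 and 9.19 in high and 7.57, 7.63 and 7.55 in low glucose, a 3.3-fold drop without overlap (adjusted p = 3.11e-06, limma). The high glucose arrays were the 3 highest of all 35 for CA12. PLOD2 read 10.07, 9.95 and 9.98 in high and 9.19, 9.04 and 8.84 in low glucose and fell by 0.98, and EGLN3 read 9.32, 9.26 and 8.88 and 8.67, 8.58 and 8.62 and fell by 0.53. Both had risen under hypoxia. TFRC fell by 0.38, ARNT2 by 0.42, PPFIA4 by 0.32, FAM162A by 0.27 and ERO1A by 0.25.

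Of the genes that rose in low glucose DDIT4, the mTOR pathway inhibitor, changed most. It read 10.33, 10.19 and 10.11 in high and 11.22, 11.10 and 11.11 in low glucose and rose by 0.94 ± 0.059 (adjusted p = 2.14e-06, limma). NFIL3 rose by 0.62, NDRG1 by 0.56, BHLHE40 by 0.49 and HMOX1 by 0.43. VHL read 9.41, 9.46 and 9.38 in high and 9.81, 9.80 and 9.91 in low glucose and rose by 0.42, whereas it had fallen under hypoxia. KDM4C rose by 0.42 and KDM4B by 0.29. EGLN1 rose by 0.21 and ARNT by 0.13. HIF1A (0.02 ± 0.057), EPAS1 (-0.06 ± 0.061), BNIP3 (-0.05 ± 0.08), BNIP3L (0.08 ± 0.042) and KDM3A (0.12 ± 0.085) did not pass the test. In the same comparison 15 of 17 ATF4 response genes were higher and none lower, with DDIT3 at 2.80 and TRIB3 at 1.66, and the glycolytic HIF targets gave 5 higher and 10 lower of 23.

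5FU, a thymidylate synthase inhibitor, against DMSO for 12 h gave 3 genes higher and 3 lower in shControl cells, against 7.17% and 4.29% of all genes. The 6 called genes are a share of 15.8%, against 11.5% of all genes. HMOX1 read 9.23 and 9.41 in DMSO and 10.21 and 10.04 with 5FU and rose by 0.81 ± 0.11 (adjusted p = 0.0121, limma). BHLHE40 read 10.30 and 10.45 and 10.98 and 11.02 and rose by 0.63, and AK4 rose by 0.46. TFRC fell by 0.52, PLOD1 by 0.45 and LOXL2 by 0.37. The values of NDRG1 (0.31 ± 0.093), EGLN1 (0.05 ± 0.11), EGLN3 (-0.08 ± 0.057), BNIP3 (0.32 ± 0.1), BNIP3L (-0.37 ± 0.13) and KDM3A (-0.55 ± 0.15) did not pass the test, nor did those of HIF1A (0.15 ± 0.053), EPAS1 (0.11 ± 0.095), ARNT (-0.14 ± 0.11), VHL (-0.28 ± 0.1) and DDIT4 (0.48 ± 0.2). With 2 arrays a group the count was fragile: leaving out the first or the second 5FU array gave 0 calls (1.22% and 1.68% of all genes), and the fit of all 35 arrays gave 15, against 19.2% of all genes. In the same comparison 12 of 14 p53 targets were higher and none lower, with FAS at 2.51.

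The difference between the stresses was tested directly in shControl cells. The hypoxia change exceeded the low glucose change for 29 genes and was below it for 3, against 12.1% and 19.7% of all genes, and it exceeded the 5FU change for 30 genes and was below it for 3, against 14.4% and 23.2%. Without the first hypoxic shControl array the numbers above and below were 30 and 3 for low glucose (9.35% and 13.8% of all genes) and 31 and 2 for 5FU (8.72% and 17.8%). Without the second they were 28 and 3 (25.3% and 25.9%) and 29 and 4 (31.2% and 28.2%). These differences share the hypoxic and normal growth arrays. As no normoxic array of the hypoxia experiment was analysed, hypoxia and the experiment cannot be told apart in these differences either. Hypoxia lasted 24 h and 5FU 12 h. The widest gap to low glucose was that of PLOD2, 2.98 ± 0.18, followed by LOXL2 at 2.23, CA12 at 2.23 and INSIG2 at 2.21. In the other direction VHL was lower by 0.94, having fallen under hypoxia and risen in low glucose. For NFIL3 (0.45 ± 0.19), ARNT (0.03 ± 0.088) and HMOX1 (-0.24 ± 0.12) no difference from low glucose passed the test. HMOX1 was lower under hypoxia than with 5FU relative to each baseline, by 0.62.

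The lines also differed without hypoxia. In normal growth 9 of the 38 genes were raised and 13 reduced in shCDK8 relative to shControl cells, against 11.4% and 13.5% of all genes. EPAS1 read 9.77, 9.71 and 9.69 in shControl and 8.46, 8.59 and 8.58 in shCDK8 cells and was lower by 1.18, the largest drop of the 38 (adjusted p = 3.7e-06, limma). DDIT4 was lower by 0.79, TFRC by 0.64, BNIP3 by 0.58, P4HA1 by 0.56, PLOD2 by 0.54, CA12 by 0.53 and EGLN3 by 0.39. AK4, LOXL2 and BHLHE40 were the most raised, followed by HMOX1, which read 9.35, 9.25 and 9.26 in shControl and 9.93, 9.94 and 10.03 in shCDK8 cells, a gap of 0.68. The genes did not move one way with the knockdown.

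EPAS1 in shCDK8 cells changed side with the condition. Under hypoxia it read 10.37 and 10.36 in shControl and 9.27 and 9.09 in shCDK8 cells, lower by 1.19 (adjusted p = 0.00812, limma). In low glucose it read 10.20, 10.06 and 10.09 in shControl and 10.41, 10.31 and 10.26 in shCDK8 cells, higher by 0.21 (adjusted p = 0.0326, limma). With 5FU it read 9.88 and 9.81 and 9.42 and 9.57, a gap of -0.36 ± 0.095 that did not pass the test. The groups were apart in each of these conditions, and the difference between the conditions was not tested. Each condition is its own experiment, and there is no group of shCDK8 cells in high glucose. The condition and the experiment therefore cannot be told apart here. In shCDK19 cells EPAS1 was higher than in shControl cells by 0.39 in normal growth and 0.32 in low glucose, with 0.78 ± 0.091 under hypoxia and 0.12 ± 0.095 with 5FU.

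Under hypoxia itself shCDK8 cells had 1 gene higher (HMOX1) and 7 lower than shControl cells (BHLHE40, BNIP3, CITED2, DDIT4, EPAS1, MXI1 and NFIL3), against 4.81% and 2.49% of all genes. DDIT4 read 12.21 and 12.30 in shControl and 11.01 and 10.99 in shCDK8 cells and was lower by 1.25 (adjusted p = 0.00576, limma). NFIL3 was lower by 1.03 and HMOX1 higher by 0.88. This fit holds 6 arrays, and its count of 8, against 7.3% of all genes in either direction, was not stable. It was 0 without the first or the second shCDK8 array (0.0326% and 0.0109% of all genes), 17 without the first shControl array (10.4%) and 18 without the second (46.4%, near the share of the 38). In the fit of all 35 arrays it was 24, against 34.7% of all genes. Neither TFRC (-0.48 ± 0.11) nor ARNT2 (0.68 ± 0.15) passed the test.

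In low glucose 7 genes were raised and 11 reduced in shCDK8 relative to shControl cells, against 12.1% and 10.2% of all genes. ARNT2 read 7.40, 7.23 and 7.31 in shControl and 8.28, 8.28 and 8.34 in shCDK8 cells and was higher by 0.99 (adjusted p = 1.23e-04, limma). TFRC read 11.59, 11.58 and 11.65 and 10.76, 10.85 and 10.78 and was lower by 0.81, and P4HA1, EGLN3 and PLOD2 were lower by 0.73, 0.67 and 0.62. AK4 and HMOX1 were higher by 0.65 and 0.64. With 5FU, 1 gene was higher (LOXL2, 0.68) and 1 lower (TMEM45A, -1.13), against 1.59% and 1.91% of all genes, and this count was 0 or 1 when 1 array was left out and 12 in the fit of all 35 arrays, against 9.31% of all genes.

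Compared with shControl, shCDK19 cells in normal growth had 3 genes higher (AK4 by 0.47, EPAS1 and CA12 by 0.30) and 3 lower (DDIT4 by 0.65, TFRC by 0.45 and WSB1 by 0.32), against 3.67% and 3.4% of all genes, and leaving out 1 array gave 2 to 4 calls in all. In low glucose 7 were higher and 8 lower, against 9.11% and 10.8%, with AK4 higher by 0.65 and HMOX1 and ARNT2 lower by 0.45 and 0.39. HMOX1 and ARNT2 were thus above shControl in shCDK8 and below it in shCDK19 cells in low glucose, comparisons that share the shControl arrays. With 5FU and under hypoxia 0 of the 38 genes passed the test in limma, against 0.837% and 0.228% of all genes. At an unadjusted p under 0.05 the counts were 6 with 5FU and 5 under hypoxia, near the shares of all genes (13.5% and 13.2%). The fit of all 35 arrays called 3 and 6, against 5.8% and 14.4% of all genes. AK4 was higher than in shControl cells in both knockdown lines in normal growth and in low glucose, and TFRC was lower in both. Within each experiment these comparisons also share the shControl arrays, so they are not independent of each other.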

How the data were processed

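Total RNA of 35 HCT116 samples was hybridised to Affymetrix gene arrays, 1 sample an array, per the labels' protocols. The deposited values are log2 signals per transcript cluster. Per the submitters' processing notes the authors used Partek; for its version, background correction and normalization, the sources used here give nothing. All arrays share a floor of 4.32, which shortens changes of dim genes, and changes are relative to the other genes. No array depth applies; the number of arrays limits the precision.

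Of 32321 clusters 19158 carried 1 gene symbol in the platform annotation, 1388 several and 11775 none. For the 637 genes with over 1 such cluster the one with the highest mean was kept, which left 18404 genes. Symbols were checked through Entrez identifiers in the supplied RefSeq gene table, which changed 0. No 2 arrays held identical values (0 pairs). Tests were two-sided and used limma 3.58.1 (lmFit, eBayes; R 4.3.3), with Benjamini-Hochberg adjustment over all 18404 genes and a threshold of 0.05. Knockdown, glucose and 5FU comparisons were fitted within their experiment, and hypoxia against normal growth, response differences and stress differences in 1 fit of all 35 arrays. The tests were checked on simulated data. The 38 genes, the gene lists and the tests were chosen with earlier results of these data known. Per comparison up to 8 genes in each direction were named by size of change, beside a fixed set of 15 central genes, and up to 4 genes of each context list. Promoter windows are RefSeq sequences of GRCh38.p14. Alternatives were other normalizations (array median, quantile), a filter at a mean of 6, the mean of all rows of a gene, other sets of arrays in the fit, the authors' one-way model, the replicate number as a block, and leaving out each array. Replicate numbers did not pair the arrays: same-numbered arrays of different groups had deviations correlated between -0.664 and 0.441. Some differently numbered arrays shared deviations, for example the first shCDK8 and the third shCDK19 array in normal growth (r = 0.762). The main fits take the arrays as independent. The labels' 5FU concentration was not used.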

Additional observations from a re-analysis of the deposited data

Results flagged for a closer look

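The hypoxia response differed between the shCDK8 and shControl lines for 10 genes by a test of the difference itself (an interaction term in limma over all 35 arrays). The difference on the log2 scale was -1.56 for BHLHE40, -1.003 for LOXL2, -0.97 for INSIG2, -0.72 for P4HA2, -0.70 for MXI1, -0.65 for CITED2, -0.63 for JMJD6, -0.57 for NDRG1, -0.51 for AK4 and 0.61 for VHL. Under 17 alternative settings the calls for BHLHE40, LOXL2, P4HA2, MXI1, CITED2, JMJD6, NDRG1 and VHL were kept in each, that for INSIG2 in all but 1 and that for AK4 in all but 5. Between the shCDK19 and shControl lines 3 genes differed, against 2.08% of all genes. The difference was 0.96 for DDIT4, 0.79 for NFIL3 and 0.39 for EPAS1. With normal growth as the baseline throughout, the call for DDIT4 was kept under all 17 settings. The calls for NFIL3 and EPAS1 were lost under 10 and 11.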

How the results depend on the processing

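Counts of called genes among the 38 were most open to the processing where a group had 2 arrays. The share of all genes called stands in parentheses. For 5FU against DMSO in shControl cells the count of 6 (11.5%) became 12 (15.6%) with each array's median removed, 15 (19.2%) with all 35 arrays in 1 fit and 12 (18.7%) with the one-way model without moderation. For shCDK8 against shControl with 5FU the 2 calls (3.5%) became 4 (5.27%) after quantile normalization, 12 (9.31%) in the fit of all arrays and 11 (9.24%) with the one-way model. For shCDK19 with 5FU the count of 0 (0.837%) became 2 with the array median (1.79%), 1 with quantile (1.97%), 2 with a mean of at least 6 (2.43%), 3 with all arrays (5.8%) and 3 with the one-way model (5.75%). Under hypoxia the count of 8 (7.3%) for shCDK8 became 15 with quantile (9.47%), 13 with a mean of at least 6 (11.4%), 24 with all arrays (34.7%) and 24 with the one-way model (33.2%), and that of 0 (0.228%) for shCDK19 became 6 in the fit of all arrays (14.4%) and with the one-way model (13.9%). The 3 larger responses in shCDK19 cells (2.08%) became 1 (0.326%) when only normal growth and hypoxia arrays were fitted, and the 15 calls for shCDK19 in low glucose (19.9%) became 9 (15.8%) with the one-way model. The wider fits hold more arrays; the cause of the other changes was not tested.

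With the replicate number as a block the count for shCDK8 under hypoxia was 4 (1.7%), and no other count moved by over 1.5 times. Exchanged numbers, tried because same-numbered arrays deviated in opposite senses, gave 10 calls for 5FU against DMSO (15.3%), 10 for shCDK8 under hypoxia (6.31%), 2 for shCDK8 with 5FU (1.46%) and 0 for shCDK19 with 5FU (0.0706%).

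Leaving out 1 array gave 32 to 36, 25 to 29 and 32 to 34 calls for hypoxia in shControl, shCDK8 and shCDK19 cells, 9 to 13 and 1 to 8 for the response differences of shCDK8 and shCDK19, 18 to 20 for low glucose, 0 to 10 for 5FU, and 31 to 33 and 30 to 34 for hypoxia against low glucose and 5FU. For shCDK8 against shControl it gave 17 to 25 in normal growth, 0 to 1 with 5FU, 13 to 16 in low glucose and 0 to 18 under hypoxia, and for shCDK19 2 to 4, 0 to 0, 11 to 12 and 0 to 6. Where this left a group with 1 array, that array was taken to vary like the other groups. For single genes, of the values called in the reported fits 3501 kept their call under the alternatives, 293 lost it and 0 changed sign. Of those not called 1546 remained so and 92 gained a call, and 71 of them changed sign.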
